A study of Mus musculus with 24 samples.

Results

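The 6 STAT genes Stat2, Stat3, Stat4, Stat5a, Stat5b and Stat6 were followed through the activation of mouse CD4+ T cells. They were taken by symbol from a table of read counts that holds 54446 Ensembl gene identifiers. All 6 had counts in every library and passed the filter on low counts, as did 15325 genes in all. Other members of the family were not analysed here. STAT proteins (signal transducers and activators of transcription) rest in the cytoplasm until a cytokine receptor engages its Janus kinases, which phosphorylate the receptor and the STAT. The phosphorylated STATs pair, enter the nucleus and bind their target genes, and SOCS proteins, PIAS proteins and phosphatases limit the signal. In CD4+ T cells, STAT4 is known for responses to IL-12 and Th1 cells, STAT6 for IL-4 and Th2 cells, STAT3 for IL-6, IL-21 and Th17 cells, STAT5 proteins for IL-2 and IL-7, and STAT2 for type I interferon.

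Messenger RNA was measured in CD4+ T cells from the spleens of 6 mice of C57BL6 background, 3 per genotype. The labels carry the numbers 1, 3 and 4 for the wild type (WT) and 1, 2 and 4 for Aim2-/-. Each number of a genotype was taken as 1 mouse. Aim2-/- mice lack the cytosolic DNA sensor AIM2. Ages were not given in the sources used here. Cells of each mouse gave 4 libraries, unstimulated (0 h) and at 3, 6 and 24 h of anti-CD3/CD28 stimulation, which makes 24 libraries in 8 groups of 3. The study asked how loss of AIM2 changes CD4+ T cells. All groups were cultured in the same medium, and no group was kept for 3, 6 or 24 h without the antibodies, so time in culture and stimulation cannot be told apart. Total counts per library ranged from 19715161 to 21627018, and the 6 genes had between 966 and 23348 counts per library, so that counting error was small beside the levels. It was not small beside the spread between mice in every group. Levels are given as CPM (counts per 1000000 counts, with library sizes scaled by TMM factors) and, where genes are compared with each other, as CPM per kb of exon. The samples are bulk RNA, in which fewer cells of a kind and less RNA per cell cannot be told apart.

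All 8 markers of CD4+ T cells lay above 1 CPM in every group. The targeted gene Aim2 went against the label of 1 mouse. In the 4 libraries of the mouse labelled WT 1 it lay between 5.57 and 21.5 CPM, against 32.5 to 75.0 CPM in the libraries of mice WT 3 and WT 4 and 5.28 to 20.1 CPM in the Aim2-/- libraries. Calls between the genotypes are therefore given with and without the mouse labelled WT 1.

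The 6 genes lie on 3 chromosomes of the mouse genome build GRCm38. Stat3 (ENSMUSG00000004040), Stat5a (ENSMUSG00000004043) and Stat5b (ENSMUSG00000020919) are neighbours on chromosome 11, at chr11:100885098-100939540 on the minus strand, chr11:100859351-100885169 on the plus strand and chr11:100780731-100850724 on the minus strand. The ends of Stat3 and Stat5a overlap by 72 bases, and 8626 bases separate Stat5a from Stat5b. Stat6 (ENSMUSG00000002147, chr10:127642986-127660957) and Stat2 (ENSMUSG00000040033, chr10:128270559-128292849) lie on the plus strand of chromosome 10, and Stat4 (ENSMUSG00000062939, chr1:51987148-52107189) on the plus strand of chromosome 1. Stat5a and Stat5b are near copies, and 598 of the 51-base windows of their transcripts were identical between them, 8.07% of the windows of Stat5a and 10.8% of those of Stat5b. Reads from these windows cannot be assigned to either gene. Of the Stat4 windows, 21.6% were shared with Gm28177, an overlapping transcript on the same strand that never exceeded 5 counts in a library.

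RefSeq start sites (GRCm38.p6) were at hand for all 6 genes, as 9 windows of 250 bases before and 50 bases after a start. The windows were searched on both strands for TTCNNNGAA (the GAS element bound by most STAT dimers), GAAANNGAA (the core of the interferon response element bound by complexes with STAT2), TGANTCA (bound by AP-1) and CACGTG (an E-box). These letters occur in 8.3%, 8.56%, 7.81% and 7.15% of all 32851 RefSeq promoter windows of the same length. Only the interferon response core was found, in a window of Stat2 (match TTCAGTTTC, 221 bases before the start) and in the window of an internal start of Stat4 (match GAAAGTGAA, 97 bases before the start), with no overlap with another motif. These are matches of letters, with no measurement of binding. The 250 bases before these 2 starts are shown because Stat2 was the gene of the 6 that rose at 3 h and 6 h in both genotypes. Stat4, with the other match, did not rise. Its log2 changes in WT and Aim2-/- cells were 0.01 and -0.01 at 3 h and -0.59 and -0.39 at 6 h. A link of the matches to the levels was not tested. The matches are in capitals, 5′ to 3′, at chr10:128270248-128270497 and chr1:52007990-52008239, both on the plus strand.
Stat2: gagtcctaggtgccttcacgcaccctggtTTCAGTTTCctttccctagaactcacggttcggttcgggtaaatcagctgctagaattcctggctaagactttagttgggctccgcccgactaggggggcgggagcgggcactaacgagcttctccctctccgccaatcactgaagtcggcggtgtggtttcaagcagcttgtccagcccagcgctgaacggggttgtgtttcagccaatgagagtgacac
Stat4, internal start: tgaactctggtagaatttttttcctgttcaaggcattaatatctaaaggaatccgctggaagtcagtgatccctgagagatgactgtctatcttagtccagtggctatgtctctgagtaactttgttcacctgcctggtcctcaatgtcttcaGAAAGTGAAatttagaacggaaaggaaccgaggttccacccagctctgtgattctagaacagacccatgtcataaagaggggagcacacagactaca

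Stat5a and Stat5b have resembling letters before a start site of each gene too, in stretches that lie within the gene spans given above. Among the 33 pairs of windows from different genes of the 6, the longest identical run before a start was 16 bases, between the downstream start of the pair known for Stat5a and the internal start of Stat5b, and no other pair shared more than 11 bases. The run is in capitals in the 250 bases before each start, at chr11:100860234-100860483 on the plus strand and chr11:100822571-100822820 on the minus strand. It begins 32 bases before the Stat5a start and 23 bases before the Stat5b start.
Stat5a: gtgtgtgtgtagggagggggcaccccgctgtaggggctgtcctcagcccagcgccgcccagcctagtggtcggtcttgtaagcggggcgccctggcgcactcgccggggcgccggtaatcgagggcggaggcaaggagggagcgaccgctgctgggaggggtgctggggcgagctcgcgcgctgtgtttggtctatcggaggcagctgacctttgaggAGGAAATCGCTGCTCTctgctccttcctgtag
Stat5b, internal start: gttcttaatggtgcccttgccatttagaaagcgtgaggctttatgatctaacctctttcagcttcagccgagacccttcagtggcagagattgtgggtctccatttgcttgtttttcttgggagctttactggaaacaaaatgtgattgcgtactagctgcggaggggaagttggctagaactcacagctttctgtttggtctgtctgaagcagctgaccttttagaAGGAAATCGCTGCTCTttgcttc

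The question of the time course was how the STAT genes moved after stimulation of the T cell receptor. At 3 h Stat2 was the gene with the largest rise, Stat5a and Stat5b had fallen, and Stat4 and Stat6 did not pass the test. By 24 h all 6 genes had lower group means than at 0 h in both genotypes, and the fall passed the test for all 6 in WT and for 5 of 6 in Aim2-/- cells. A gene is called when its adjusted p from edgeR's quasi-likelihood test, after Benjamini and Hochberg over all 15325 genes, is under 0.05. In WT cells, 2 members were called and higher at 3 h against 16.2% of all genes tested, and 2 were called and lower against 16.4%. At 6 h 1 member was higher (26.4% of all genes) and 4 were lower (24.8%), and at 24 h none was higher (36.6%) and 6 were lower (34.8%). In Aim2-/- cells, 1 member was higher (16.1%) and 2 lower (14.6%) at 3 h, 1 was higher (28.5%) and 5 lower (22.7%) at 6 h, and none was higher (36.8%) and 5 lower (33.5%) at 24 h. The median log2 fold change of the 6 members at 24 h was -1.13 in WT and -1.40 in Aim2-/- cells, where the median of all genes tested was -0.01 and 0.03. Without the mouse labelled WT 1, 3 members were called in WT cells at 3 h (22.4% of all genes in that fit), 5 at 6 h (43.7%) and 6 at 24 h (64.1%).

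**Figure D1:**
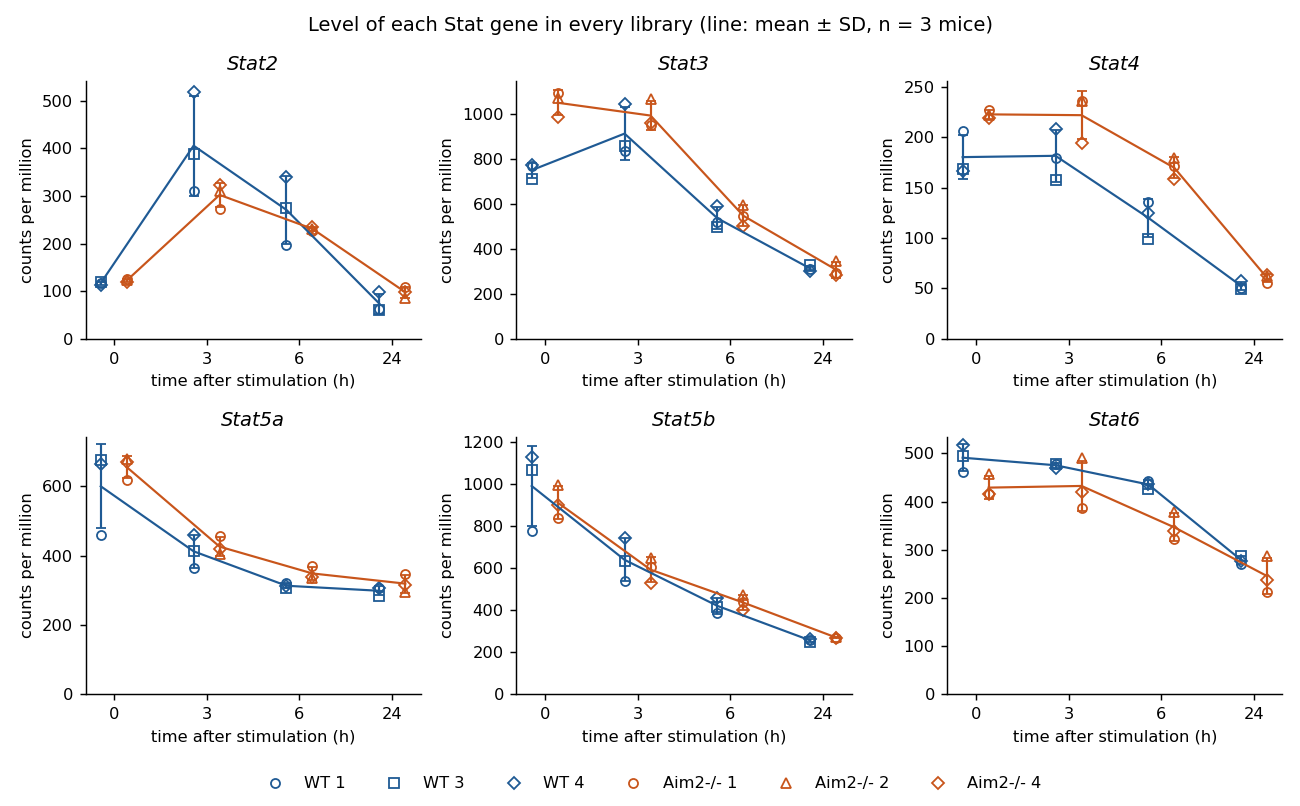
Level of each gene in CPM (y axis, linear from 0) at 0, 3, 6 and 24 h (x axis, evenly spaced) in WT (blue) and Aim2-/- (orange) mice. Symbols are mice, lines join the group means and bars are SDs (n = 3). Stat2 peaks at 3 h, and all 6 genes have their lowest means at 24 h in both genotypes.

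Stat2, which pairs with IRF9 and a further STAT in the response to type I interferon, had 117, 120.5 and 114 CPM in mice WT 1, WT 3 and WT 4 at 0 h. At 3 h the same mice had 310.1, 389 and 518 CPM. The 3 h libraries lay above all 0 h libraries, with the mouse labelled WT 1 the lowest. At 6 h they had 198, 276 and 339.6 CPM, and at 24 h 63.2, 61.2 and 98.3 CPM. Stat2 in Aim2-/- mice 1, 2 and 4 stood at 125, 123 and 119.8 CPM at 0 h, at 273, 311 and 323 CPM at 3 h, at 228, 231 and 235 CPM at 6 h and at 109.7, 86.1 and 98.8 CPM at 24 h. The rise was thus seen in every mouse, and the level lay below that of 0 h in every mouse at 24 h. The log2 fold change at 3 h was 1.79 (SE 0.19, adjusted p 4.1e-07 by edgeR) in WT and 1.30 (SE 0.19, adjusted p 2.4e-05) in Aim2-/- cells. At 6 h it was 1.21 (adjusted p 1.5e-05) and 0.91 (adjusted p 0.000335). At 24 h Stat2 had fallen in WT cells (-0.66, SE 0.19, adjusted p 0.00365), while its change of -0.32 in Aim2-/- cells did not pass (SE 0.19, adjusted p 0.13). With the mouse as a block the latter passed (-0.32, adjusted p 0.0243). In the order of group means, neighbouring groups had overlapping ranges except Aim2-/- 6 h above Aim2-/- 0 h and WT 0 h above Aim2-/- 24 h.

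Stat3, the STAT of IL-6, IL-10 and IL-21 signalling, had 768, 712.5 and 773.5 CPM in mice WT 1, WT 3 and WT 4 at 0 h, 835.5, 859.9 and 1048 CPM at 3 h, 519, 500.4 and 593 CPM at 6 h and 309.6, 328 and 303 CPM at 24 h. In WT cells the 3 h libraries lay above and the later libraries below those of 0 h. Aim2-/- mice 1, 2 and 4 carried 1094, 1072 and 989.6 CPM at 0 h, 953, 1070 and 961 CPM at 3 h, 546, 597 and 502 CPM at 6 h and 292, 347 and 284 CPM at 24 h. In these mice the 0 h and 3 h libraries overlapped. Stat3 rose at 3 h in WT cells by 0.28 on the log2 scale (SE 0.10, adjusted p 0.0363), and its change in Aim2-/- cells was -0.08 (SE 0.10, adjusted p 0.604). The WT call at 3 h did not hold without the mouse labelled WT 1 (0.36, adjusted p 0.0599), without WT 3 (0.27, adjusted p 0.198) or without WT 4 (0.17, adjusted p 0.378), nor with RLE size factors (0.26, adjusted p 0.0685). Stat3 fell by 0.48 at 6 h (adjusted p 0.000399) and by 1.26 at 24 h (SE 0.10, adjusted p 5.1e-10) in WT cells, and in Aim2-/- cells it fell by 0.94 (adjusted p 2.0e-07) at 6 h and fell by 1.77 (SE 0.10, adjusted p 5.5e-12) at 24 h. Of the neighbours in the order of group means, WT 3 h and WT 0 h, WT 0 h and Aim2-/- 6 h, and WT 6 h and WT 24 h had separate ranges.

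Stat4, the STAT of IL-12 signalling, fell between 3 and 24 h. It had 206, 168 and 167 CPM in mice WT 1, WT 3 and WT 4 at 0 h and 179, 157 and 208 CPM at 3 h. These ranges overlapped, with changes of 0.01 (adjusted p 0.964) in WT and -0.01 (adjusted p 0.979) in Aim2-/- cells. At 6 h the WT mice had 136, 99.3 and 125 CPM, and at 24 h 50.4, 49.6 and 57.4 CPM. Levels in Aim2-/- mice 1, 2 and 4 were 227, 222 and 219 CPM at 0 h, 236, 235.5 and 194 CPM at 3 h, 171, 179 and 158.5 CPM at 6 h and 55.8, 62.1 and 63.2 CPM at 24 h. All 24 h libraries lay below all others. Stat4 fell by 0.59 at 6 h (SE 0.12, adjusted p 0.000285) and by 1.78 at 24 h (SE 0.12, adjusted p 3.9e-11) in WT cells, and by 0.39 (SE 0.12, adjusted p 0.00854) and 1.88 (SE 0.12, adjusted p 2.3e-11) in Aim2-/- cells. The call at 6 h in Aim2-/- cells did not hold without mouse Aim2-/- 4 (-0.36, adjusted p 0.0627). Between neighbours in the order of means, the ranges separated Aim2-/- 6 h from WT 6 h and WT 6 h from Aim2-/- 24 h.

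Stat5a and Stat5b act downstream of IL-2, IL-7 and other cytokines. Stat5b fell at every step. It had 776, 1066 and 1128 CPM in mice WT 1, WT 3 and WT 4 at 0 h, 540.5, 633 and 745 CPM at 3 h, 386, 416 and 460.2 CPM at 6 h and 257, 248 and 264 CPM at 24 h. In Aim2-/- mice 1, 2 and 4 it had 840.0, 995 and 898 CPM at 0 h, 603, 647 and 528 CPM at 3 h, 438, 470.1 and 400.0 CPM at 6 h and 269, 274 and 267 CPM at 24 h. The ranges of the 4 time points did not overlap in either genotype, and at 0 h the mouse labelled WT 1 was the lowest of all 6. Stat5b fell by 0.63 (adjusted p 0.000597), 1.24 (adjusted p 7.9e-08) and 1.95 (SE 0.13, adjusted p 2.9e-11) in WT cells at 3, 6 and 24 h, and by 0.62 (adjusted p 0.000838), 1.06 (adjusted p 7.9e-07) and 1.75 (SE 0.13, adjusted p 1.7e-10) in Aim2-/- cells. In the order of group means the 2 genotypes were neighbours at each time, with ranges that overlapped at 0, 3 and 6 h and were apart at 24 h.

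Stat5a fell mostly before 6 h. In mice WT 1, WT 3 and WT 4 it had 459.5, 674 and 664 CPM at 0 h, 365, 414 and 458 CPM at 3 h, 319.7, 308 and 311.5 CPM at 6 h and 307, 283 and 306 CPM at 24 h. At 0 h the mouse labelled WT 1 was again low. In Aim2-/- mice 1, 2 and 4 it had 617, 676 and 670.0 CPM at 0 h, 456, 404 and 417 CPM at 3 h, 369, 336 and 339.5 CPM at 6 h and 347, 296 and 314 CPM at 24 h. Stat5a fell by 0.54 (adjusted p 0.000925), 0.94 (adjusted p 7.1e-07) and 1.01 (SE 0.12, adjusted p 9.7e-08) in WT cells at 3, 6 and 24 h, and by 0.62 (adjusted p 0.000306), 0.91 (adjusted p 1.4e-06) and 1.04 (SE 0.12, adjusted p 7.2e-08) in Aim2-/- cells. From Aim2-/- 3 h downwards, all neighbours in the order of means had overlapping ranges except WT 6 h and WT 24 h.

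Stat6, the STAT of IL-4 and IL-13 signalling, was first called at 24 h in WT and at 6 h in Aim2-/- cells. In mice WT 1, WT 3 and WT 4 it had 461, 494 and 518 CPM at 0 h, 479, 478 and 469.9 CPM at 3 h, 443, 426 and 437 CPM at 6 h and 271, 287 and 277 CPM at 24 h. In Aim2-/- mice 1, 2 and 4 it had 416, 456 and 415 CPM at 0 h, 388, 489.5 and 420.3 CPM at 3 h, 322, 378 and 339.8 CPM at 6 h and 213, 286 and 237 CPM at 24 h. The ranges of 0 h and 3 h overlapped in both genotypes, and those of 24 h lay below all earlier ones of the same genotype. At 3 h the changes were -0.05 (95% interval -0.25 to 0.16) in WT and 0.01 (-0.19 to 0.22) in Aim2-/- cells. At 6 h the change was -0.17 in WT cells (adjusted p 0.149, and 0.0302 with the mouse as a block), and Stat6 fell by 0.31 in Aim2-/- cells (adjusted p 0.0124, and 0.0658 without mouse Aim2-/- 4). The difference of these 6 h responses did not pass edgeR's test (-0.13, SE 0.14, adjusted p 0.741). At 24 h it fell by 0.82 (SE 0.10, adjusted p 2.1e-07) in WT and 0.81 (SE 0.10, adjusted p 2.9e-07) in Aim2-/- cells. Ranges were apart between WT 3 h and WT 6 h, Aim2-/- 0 h and Aim2-/- 6 h, and Aim2-/- 6 h and WT 24 h in the order of means.

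**Figure D2:**
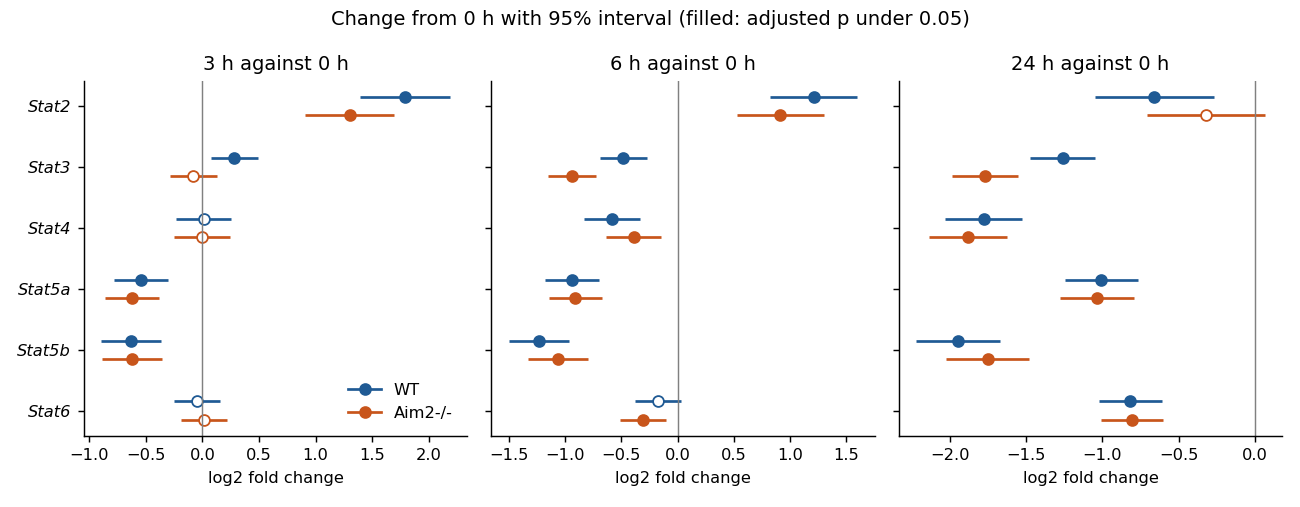
Log2 fold change of each gene at 3, 6 and 24 h against 0 h (x axis, a separate scale in each panel) with its 95% interval, in WT (blue) and Aim2-/- (orange) cells. Filled points have an adjusted p under 0.05. Stat2 lies to the right of 0 at 3 and 6 h, and Stat5a and Stat5b lie to the left of 0 in all panels.

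Steps between neighbouring times showed when each gene moved. From 3 to 6 h, 5 members were called in WT cells (25.7% of all genes), all lower, with Stat3 (-0.77, SE 0.10, adjusted p 2.7e-05) the largest, and Stat6 at -0.13 (adjusted p 0.391) was not. In Aim2-/- cells 4 were called and lower (23.3% of all genes), Stat3, Stat4, Stat5b and Stat6, while Stat2 stood at -0.39 (adjusted p 0.141) and Stat5a at -0.29 (adjusted p 0.0738). With the mouse as a block both passed in Aim2-/- cells (adjusted p 0.0175 and 0.0294). Without WT 3, the calls of Stat2 (-0.66, adjusted p 0.0901) and Stat5a (-0.41, adjusted p 0.091) in WT cells were lost, and without WT 4 that of Stat5a (-0.31, adjusted p 0.2). The Stat2 call in WT cells was also lost without mouse Aim2-/- 4 (-0.58, adjusted p 0.051). In Aim2-/- cells the calls of Stat4 and Stat5b were lost without each of the mice Aim2-/- 1, 2 and 4, with adjusted p of 0.0627 or more, and that of Stat6 without Aim2-/- 4 (-0.32, adjusted p 0.112). From 6 to 24 h, 5 members were called and lower in WT (57.6% of all genes) and the same 5 in Aim2-/- cells (54.3%). Stat2 fell most in WT cells (-1.87, SE 0.19, adjusted p 5.8e-08) and Stat4 most in Aim2-/- cells (-1.49, SE 0.12, adjusted p 4.8e-09). Stat5a was the exception in both, with -0.07 (95% interval -0.31 to 0.17) in WT and -0.13 (-0.37 to 0.11) in Aim2-/- cells.

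The neighbouring near copies Stat5a and Stat5b thus differed in their late course. The share of Stat5a among the counts of both genes needs no scaling between libraries and was 37.2%, 38.8% and 37.1% in mice WT 1, WT 3 and WT 4 at 0 h and 54.4%, 53.3% and 53.7% at 24 h. In Aim2-/- mice 1, 2 and 4 it was 42.3%, 40.5% and 42.7% at 0 h and 56.4%, 51.9% and 54.01% at 24 h. All 24 h libraries had a larger share than any 0 h library. Within mice the share rose by 14.2 percentage points (SD 2.49, n = 6, higher in 6 of 6 mice) at 24 h, with an exact two-sided sign-flip permutation p of 0.03125, the smallest that 6 mice allow, and 0.0469 after adjustment over 3 times. At 6 h the difference was 3.83 points (SD 2.27, n = 6, 6 of 6 mice, exact permutation p 0.03125, adjusted 0.0469) and at 3 h 0.827 points (SD 1.67, n = 6, 5 of 6 mice, exact permutation p 0.281). The 3 WT mice and the 3 Aim2-/- mice alone had means of 16.1 and 12.3 points at 24 h. Between genotypes the share differed most at 0 h, with 37.7 ± 0.939% (SD, n = 3) in WT and 41.8 ± 1.21% (SD, n = 3) in Aim2-/- cells (exact permutation p 0.1, the smallest that 3 against 3 mice allow, adjusted 0.4 over 4 times). Leaving out the mouse labelled WT 1, the means were 37.9% (n = 2) and 41.8% (n = 3), with an exact permutation p of 0.1, the smallest possible.

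**Figure D3:**
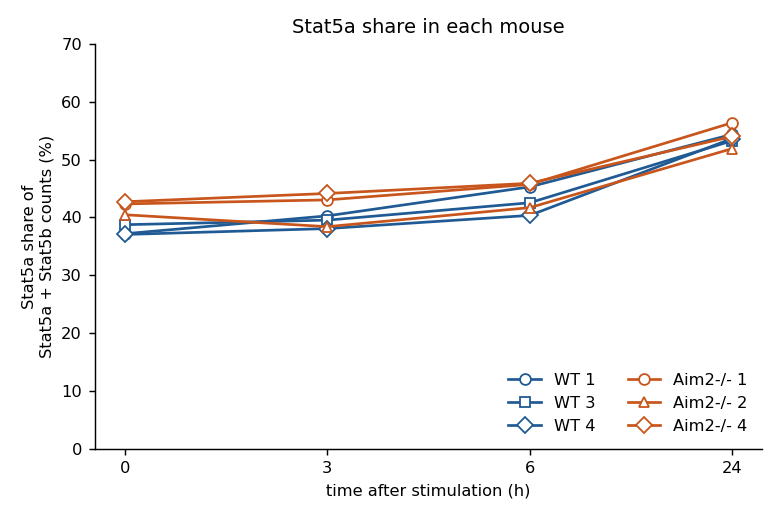
Share of Stat5a in the summed counts of Stat5a and Stat5b (y axis, percent, from 0) at 0, 3, 6 and 24 h (x axis, evenly spaced), with a line for each mouse, WT in blue and Aim2-/- in orange. All 6 lines end above their start, between 51.9% and 56.4%.

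Per length of exon, Stat5b had the highest level of the 6 genes in resting WT cells, 179 ± 34.0 CPM per kb (SD, n = 3), followed by Stat6 with 112 ± 6.41, Stat5a with 84.01 ± 17.0, Stat3 with 78.9 ± 3.56, Stat4 with 46.6 ± 5.7 and Stat2 with 19.8 ± 0.534 CPM per kb. In Aim2-/- cells at 0 h Stat3 (110.4 ± 5.76 CPM per kb) came before Stat6 (97.5 ± 5.37) and Stat5a (91.7 ± 4.59). The length joins all annotated exons of a gene, so the order of the genes and their parts of the sum depend on the annotation too. Reads of the windows that Stat5a, Stat5b and Stat4 share with other genes may also bear on them. The summed level of all 6 was 519.5 ± 50.1 CPM per kb in WT and 542 ± 23.02 in Aim2-/- cells at 0 h and 210.5 ± 5.49 and 214 ± 8.08 at 24 h (SD, n = 3). At 24 h Stat6 had the largest mean part of the sum, 30.1 ± 1.25% in WT and 26.02 ± 3.03% in Aim2-/- cells, although in mouse Aim2-/- 1 Stat5a and Stat5b lay above it (48.7, 48.5 and 48.4 CPM per kb). Stat5b had held 34.2 ± 3.41% and 30.3 ± 1.42% at 0 h. Stat2 held 3.84 ± 0.412% of the WT sum at 0 h and 13.8 ± 1.96% at 3 h.

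**Figure D4:**
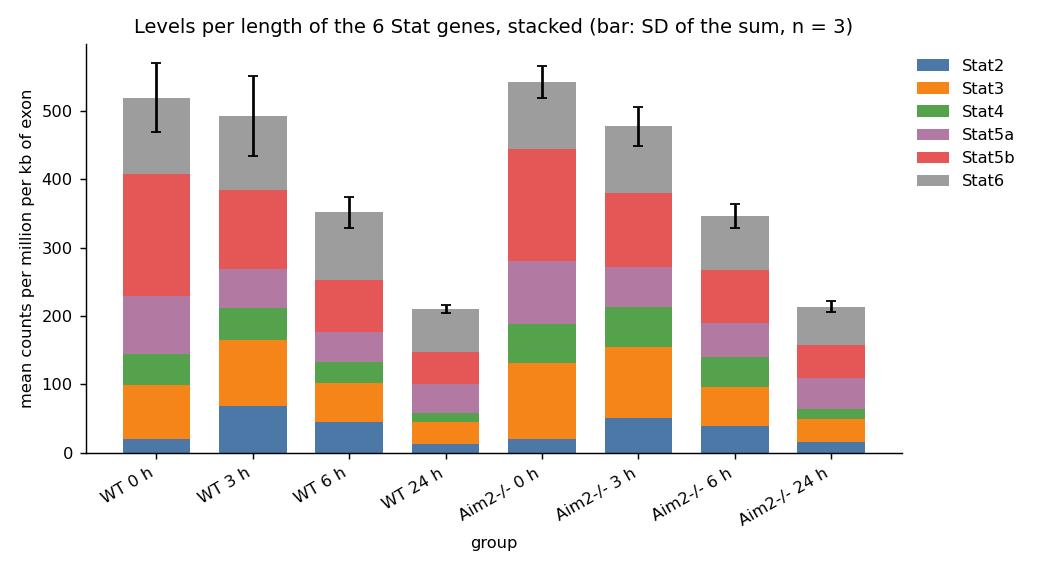
Mean level of each gene in CPM per kb of exon (y axis, from 0), stacked for the 8 groups (x axis), with the SD of the sum over 3 libraries as a bar. The stacks shorten from 519.5 and 542 at 0 h to 210.5 and 214 CPM per kb at 24 h, and the Stat2 segment is longest at 3 h.

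The genotype comparison asked where Aim2-/- cells differed from WT cells in STAT expression. At 0 h Stat3 was the called member, higher in Aim2-/- cells (5.23% of all genes tested were called at 0 h). The libraries of Stat3, given above, did not overlap between genotypes. Those of Stat4 (0.30, adjusted p 0.123) and Stat6 (-0.19, adjusted p 0.23) did not overlap either, and neither gene was called. How many of all genes had separate ranges is not given here. The Stat3 difference was 0.48 on the log2 scale (SE 0.10, 95% interval 0.27 to 0.70, adjusted p 0.0137). Without the mouse labelled WT 1 it was 0.50 (adjusted p 0.0246, with 5.77% of genes called). Without WT 3, WT 4 or Aim2-/- 1 the difference did not pass, with 0.41 (adjusted p 0.154), 0.48 (adjusted p 0.0688) and 0.46 (adjusted p 0.0722). After stimulation the Stat3 ranges of the genotypes overlapped, and the difference was 0.12 (95% interval -0.09 to 0.33) at 3 h, 0.03 (-0.18 to 0.24) at 6 h and -0.03 (-0.24 to 0.18) at 24 h. Without Aim2-/- 2 Stat6 was also called at 0 h (-0.24, adjusted p 0.04). Over the fits that leave out 1 mouse, 0.191% to 13.7% of all genes were called at 0 h.

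At 3 h and 24 h edgeR called no member, beside 0.294% and 0.666% of all genes. Neither did DESeq2, beside 2.0% and 5.14% of all genes, or limma-voom, beside 0.411% and 0.0326%. At an unadjusted p under 0.05 edgeR had 2 members at 3 h, Stat2 (-0.42, adjusted p 0.278) and Stat4 (0.29, adjusted p 0.256), and 1 at 24 h, Stat2 (0.40, adjusted p 0.228). The share of all genes under that unadjusted threshold is not given here, so these counts cannot be set against it. Without the mouse labelled WT 1 no member was called at 3 h or 24 h either, with 2.71% and 1.05% of all genes called. Without Aim2-/- 2 Stat6 was called at 24 h (-0.31, adjusted p 0.0105). Over the fits that leave out 1 mouse, 0.0% to 17.3% of all genes were called at 24 h. At 6 h 2 members were called beside 15.8% of all genes, with ranges that did not overlap. Stat5a also had separate ranges at 6 h and was not called (0.15, adjusted p 0.349). Stat4 was higher in Aim2-/- cells (0.50, SE 0.12, adjusted p 0.0143), and Stat6 was lower (-0.33, SE 0.10, adjusted p 0.032). Without the mouse labelled WT 1, when 11.4% of genes were called, Stat4 stayed called (0.59, adjusted p 0.0134) and Stat6 did not (-0.32, adjusted p 0.0837). The Stat4 call was lost without WT 3 (0.34, adjusted p 0.117), WT 4 (0.48, adjusted p 0.064) or Aim2-/- 1 (0.49, adjusted p 0.0703). The Stat6 call was lost without WT 3 (-0.38, adjusted p 0.111), WT 4 (-0.37, adjusted p 0.109), Aim2-/- 1 (-0.28, adjusted p 0.1) or Aim2-/- 4 (-0.32, adjusted p 0.112).

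Transcripts of other cell types were also higher in Aim2-/- libraries. At 0 h the 8 myeloid markers summed to 47.6 to 75.3 CPM in WT and 138 to 428 CPM in Aim2-/- libraries, the 6 neutrophil markers to 27.7 to 29.1 and 112 to 296.0 CPM, the 5 basophil and mast cell markers to 7.2 to 9.97 and 53.3 to 102 CPM, the 8 B cell markers to 11.1 to 15.5 and 17.8 to 50.3 CPM and the 6 erythroid markers to 7.7 to 71.8 and 21.1 to 336 CPM. The 8 CD4+ T cell markers summed to 4922 to 5091 CPM in WT and 5036 to 5298 CPM in Aim2-/- libraries. At 6 h the myeloid markers summed to 31.8 to 71.5 and 87.1 to 261 CPM. The 4 NK cell markers summed to 34.1 to 46.9 and 38.9 to 69.8 CPM at 0 h and the 2 CD8 T cell markers to 9.76 to 11.4 and 8.12 to 10.9 CPM. No marker was at 0 in all libraries of a group. With B cell, myeloid and erythroid scores as terms of the fit, the Stat3 difference at 0 h was 0.61 (adjusted p 0.00517), the Stat4 difference at 6 h was 0.57 (adjusted p 0.0169) and the Stat6 difference at 6 h was -0.16 (adjusted p 0.25). The part of basophil, mast cell and neutrophil transcripts was not tested.

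**Figure D5:**
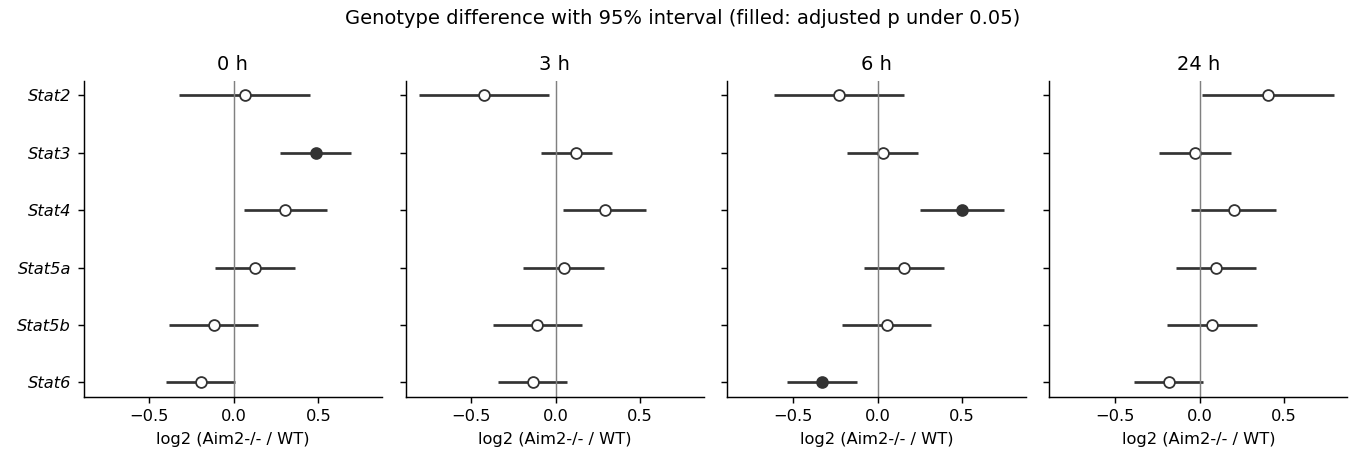
Log2 ratio of Aim2-/- to WT cells for each gene (x axis, the same scale in all panels) at 0, 3, 6 and 24 h, with 95% intervals. Filled points have an adjusted p under 0.05, and these are Stat3 at 0 h and Stat4 and Stat6 at 6 h.

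The difference between the genotypes' responses was tested as an interaction. edgeR called no member at 3, 6 or 24 h, beside 0.0%, 0.0261% and 0.0% of all genes. At an unadjusted p under 0.05 edgeR had 1 member, Stat3, at each time, and the share of all genes under that threshold is not given here. The differences at all times are taken from the same 0 h libraries, in which Stat3 was 0.48 higher in Aim2-/- cells. They are therefore not independent of each other. The Stat3 response of Aim2-/- minus WT cells was -0.36 at 3 h, -0.46 at 6 h and -0.51 at 24 h, each with an SE of 0.14, and the adjusted p was 0.9999, 0.171 and 0.152. With the mouse as a block it passed at 6 h (-0.46, adjusted p 0.0252) and 24 h (-0.52, adjusted p 0.0191), and DESeq2 called it at 24 h (-0.52, adjusted p 0.0476), while limma-voom without a block did not. In the fits with the block, fixed or random, 4.68% and 3.22% of all genes were called at 6 h and 2.77% and 1.32% at 24 h, and DESeq2 called 1.21% there. Without the mouse labelled WT 1 no member was called, beside 0.0%, 0.0511% and 0.102% of all genes, and the Stat3 values were -0.44, -0.50 and -0.54 (adjusted p 0.9999, 0.272 and 0.199). In each mouse Stat3 fell from 0 to 24 h, by 1.12 to 1.35 on the log2 scale in the WT mice and by 1.63 to 1.91 in the Aim2-/- mice. For Stat2 the difference of the responses was -0.49 (SE 0.26, 95% interval -1.04 to 0.06, adjusted p 0.9999) at 3 h. Without WT 4, the mouse with the highest Stat2 at 3 h, it was -0.23 (adjusted p 1), and without the mouse labelled WT 1 it was -0.65 (adjusted p 0.9999).

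Of the 64 genes in the lists of the pathway around the STATs, all were tested, and some of them stand in several lists. In WT cells 28 rose and 11 fell at 3 h, beside 16.2% and 16.4% of all genes, and 23 rose and 33 fell at 24 h, beside 36.6% and 34.8%. In Aim2-/- cells 24 rose and 15 fell at 3 h (16.1% and 14.6% of all genes), and 23 rose and 34 fell at 24 h (36.8% and 33.5%).  The 4 Janus kinases moved in different directions. Jak1, which serves receptors of IL-2, IL-6 and the interferons, fell by 2.04 (SE 0.15, adjusted p 1.2e-10) in WT and 1.96 (SE 0.15, adjusted p 2.8e-10) in Aim2-/- cells at 24 h. Jak2 fell by 1.02 (adjusted p 1.4e-06) and 1.62 (adjusted p 2.0e-09). Jak3, the partner of the common gamma chain, rose by 0.67 (adjusted p 1.1e-05) and 0.40 (adjusted p 0.00225). Tyk2, used by receptors of IL-12 and type I interferon, rose at 3 h by 0.56 (adjusted p 0.000166) and 0.44 (adjusted p 0.00175), and its 24 h values were -0.18 (adjusted p 0.113) in WT and -0.22 (adjusted p 0.0498) in Aim2-/- cells.

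Of the 12 cytokines that act through STATs, 7 rose and 2 fell at 24 h in WT cells, beside 36.6% and 34.8% of all genes, and 8 rose and 1 fell in Aim2-/- cells, beside 36.8% and 33.5%. Il2, the T cell growth factor that signals through STAT5, stood at 1.59 ± 0.253 CPM (SD, n = 3) at 0 h and 145 ± 5.47 CPM (SD, n = 3) at 24 h in WT and at 2.54 ± 0.654 and 104.5 ± 16.2 CPM in Aim2-/- cells. Il3, a growth factor of myeloid cells, had no counts in the WT libraries of 0 h and 16.4 ± 4.24 CPM at 24 h, at least 113-fold above the floor of 3 counts per library. Of the 16 receptor chains, 2 rose and 12 fell at 24 h in WT and 2 rose and 13 fell in Aim2-/- cells. Il7r, the IL-7 receptor chain of resting T cells, fell by 4.86 (SE 0.23) in WT and 3.76 (SE 0.22) in Aim2-/- cells, and Il12rb1, a chain of the IL-12 receptor, rose by 5.40 (SE 0.31) and 4.93 (SE 0.30).

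Among the inhibitors, 3 of 8 SOCS genes rose and 4 fell at 24 h in WT cells, with 3 and 5 in Aim2-/- cells, where 36.6% and 36.8% of all genes rose and 34.8% and 33.5% fell. Socs1, a feedback inhibitor of Janus kinases, rose from 19.5 ± 2.02 CPM at 0 h to 377 ± 52.9 CPM at 3 h in WT cells, and Aim2-/- cells went from 35.8 ± 7.15 to 306 ± 70.7 CPM (SD, n = 3). Socs3, an inhibitor of IL-6 signalling and known as a STAT3 target, had 336 ± 34.6 CPM at 0 h and 51.9 ± 11.5 CPM at 24 h in WT and 475 ± 19.1 and 86.03 ± 7.76 CPM in Aim2-/- cells. All 4 PIAS genes fell at 24 h in both genotypes, among them Pias1 (-1.33, SE 0.08, in WT) and Pias3 (-1.34, SE 0.17, in WT). Of 5 phosphatases 4 rose in WT and 3 in Aim2-/- cells at 24 h and 1 fell in each. Ptpn6, which encodes SHP-1, rose by 2.65 (SE 0.12) and 2.13 (SE 0.11), and Ptprc, which encodes CD45, fell by 0.61 (SE 0.12) and 0.78 (SE 0.13). All 5 partners and co-activators fell at 24 h in both genotypes, among them the acetyltransferase genes Crebbp (-2.09, SE 0.12, in WT) and Ep300 (-1.49, SE 0.15, in WT).

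Of 16 known STAT target genes 12 rose and none fell at 3 h in WT cells, beside 16.2% and 16.4% of all genes. At 24 h 10 rose and 4 fell, beside 36.6% and 34.8%. In Aim2-/- cells 12 rose and 1 fell at 3 h, beside 16.1% and 14.6% of all genes. There 11 rose and 3 fell at 24 h, beside 36.8% and 33.5%. Tbx21, which encodes the Th1 factor T-bet, rose by 3.47 (SE 0.23) in WT and 2.28 (SE 0.22) in Aim2-/- cells at 24 h. Its means in WT and Aim2-/- cells were 21.4 and 41.8 CPM at 0 h and 237 and 203 CPM at 24 h. At 0 h Tbx21 was called higher in Aim2-/- cells (0.96, SE 0.22, edgeR adjusted p 0.0197), and its value without the mouse labelled WT 1 is not given here. The difference of its 24 h responses did not pass (-1.19, SE 0.30, adjusted p 0.128). Bcl6, which encodes the repressor that directs follicular helper T cells, fell by 3.25 (SE 0.18) and 3.37 (SE 0.18) at 24 h. Between genotypes 8 of the 64 pathway genes were called higher and 1 lower in Aim2-/- cells at 0 h, beside 3.24% and 1.99% of all genes. None was called at 3 h (0.294% of all genes), 5 were higher and 8 lower at 6 h (8.78% and 7.01%) and 3 were higher at 24 h (0.659%). Without the mouse labelled WT 1, 9 were higher and 1 lower at 0 h (5.77% of all genes called), 2 higher and 4 lower at 3 h (2.71%), 4 higher and 8 lower at 6 h (11.4%) and 2 higher at 24 h (1.05%). Socs1 was among those higher at 0 h, with 0.88 (SE 0.24, adjusted p 0.037) and, without that mouse, 0.89 (SE 0.21, adjusted p 0.022). No fit with the marker scores of other cell types is given here for the pathway genes. The part of other cell types in these genotype differences was not tested.

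The genes whose log2 CPM ran closest to each member over the 24 libraries are given as a description, since the libraries share mice and times. Stat2 ran with Parp10 (r = 0.98) and Parp14 (r = 0.975), which encode ADP-ribosyltransferases, and with the RNA helicase gene Mov10 (r = 0.966). Stat3 ran with Tbc1d10a (r = 0.959) and the T cell adaptor gene Fyb (r = 0.956). Stat4 ran with the kinase gene Pim1 (r = 0.981), the transporter gene Abcb1a (r = 0.979) and Plagl1 (r = 0.975). Stat5a ran with Snx18 and C9orf72 (both r = 0.966) and Creb3 (r = 0.961), and Stat5b with the antiviral gene Zc3hav1 and the cohesin loader gene Mau2 (both r = 0.989) and Mtmr3 (r = 0.988). Stat6 ran with the kinase gene Prkch (r = 0.986), Utrn (r = 0.978) and Cdk13 (r = 0.977). Among the members, Stat3 and Stat4 were closest (r = 0.943), followed by Stat5a and Stat5b (r = 0.915), and Stat2 and Stat5a were furthest apart (r = -0.0005).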

How the data were processed

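CD4+ T cells were isolated from spleens and stimulated with anti-CD3/CD28, and stranded mRNA libraries were sequenced. The authors aligned reads to GRCm38 and deposited raw read counts per Ensembl gene for 24 libraries, without normalization. Their processing notes name STAR, edgeR and DESeq2. How reads shared by genes were counted, and whether strand was used, is not given in the sources used here, so values of overlapping and near-identical genes are uncertain. Annotation came from GENCODE M21 of the same build and matched 54409 of 54446 identifiers, and promoter windows came from RefSeq.

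All 24 libraries were fitted together with 1 mean per group in edgeR 4.0.16 (R 4.3.3), with TMM factors, filterByExpr at a minimum count of 10 and the two-sided quasi-likelihood F test. Adjustment after Benjamini and Hochberg ran over the 15325 genes tested in each of 17 comparisons. The biological coefficient of variation was 18.6%. A prior count of 2 was used for log2 CPM. At the median depth 3 counts equal 0.145 CPM, which covers counting error only. The Stat5a share was tested by exact sign-flip permutation within mice. The fits were tested on simulated data.

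Groups come from the labels, which give a genotype, a number and a time. The number was taken as the mouse, so that each mouse gave all 4 times. Deviations from group means correlated with r from 0.139 to 0.567 in the 36 pairs of libraries from 1 mouse and from -0.432 to 0.0742 in 72 pairs from 2 mice of the same genotype. The libraries were thus taken as paired by mouse, and a value with the mouse as a block is given where it changes a call (a fixed term in edgeR, or a random one in limma-voom). The p-values of the main fit measure the spread between the mice of a group, pooled over the groups. That fit treats the 4 libraries of a mouse as independent, although their deviations correlated.

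Alternatives were RLE factors, library totals alone, DESeq2 1.42.0, limma-voom 3.58.1, no filter, a mean of at least 1 CPM, only the libraries compared, each mouse left out, the mouse block and, between genotypes, marker scores of B, myeloid and erythroid cells. The members, the pathway and marker lists and the tests were chosen with earlier results of these data known. Genes named are the 6 members, Aim2, the 4 Janus kinases, from each other list the 2 called genes with the largest change in WT cells at 24 h, and for each member the 3 genes with the highest r that have no clone name, of which 1 is not reported here.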

Additional observations from a re-analysis of the deposited data

Results flagged for a closer look

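The changes of Stat3 at 3 h lay on opposite sides of 0 in the genotypes. It changed by 0.12, 0.27 and 0.44 on the log2 scale from 0 to 3 h in mice WT 1, WT 3 and WT 4 and by -0.20, -0.0023 and -0.04 in Aim2-/- mice 1, 2 and 4. The difference of the responses was -0.36 (SE 0.14), and edgeR's test of that difference did not pass (adjusted p 0.9999). Its range over the alternatives was -0.44 to -0.25, all with an adjusted p of 0.34 or more. Groups of 3 were not searched for single outlying samples.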

How the results depend on the processing

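Of 1350 values of single genes under an alternative, 1252 kept their direction and their side of the threshold, 39 no longer passed the test, 25 newly passed it and 34 changed sign; none of those 34 passed in either fit. The counts of members called against 0 h moved by no more than 1.5 times in either genotype under any alternative, and the Stat5a share rose at 6 and 24 h under each, although with 1 mouse left out the exact test cannot go below 0.0625 and with 1 genotype not below 0.25. Without the pairing of mice its exact p was 0.567, 0.0303 and 0.00216 at 3, 6 and 24 h. Leaving out 1 mouse each time, the count of members called ranged from 3 to 5 for WT 6 h against 3 h (9.83% to 27.2% of all genes), from 1 to 5 for Aim2-/- 6 h against 3 h (13.9% to 21.4%), from 0 to 2 for the genotypes at 0 h (0.191% to 13.7%), from 0 to 2 at 6 h (0.607% to 25.7%) and from 0 to 1 at 24 h (0.0% to 17.3%). With only the libraries compared it was 1 for Aim2-/- 6 h against 3 h (7.79% of all genes) and 0 for the genotypes at 6 h (7.17%), where it was 1 with scores of other cell types in the fit (2.45%). With the mouse as a block, fixed or random, 1 member (Stat3) was called for the genotype difference in the 6 h response (4.68% and 3.22% of all genes) and 1 (Stat3) for that in the 24 h response (2.77% and 1.32%), where DESeq2 also called 1 (1.21%). Besides these, both blocks newly called Stat6 in WT at 6 h, Stat2 in Aim2-/- at 24 h, and Stat2 and Stat5a in Aim2-/- from 3 to 6 h, with adjusted p of 0.0302, 0.0243, 0.0175 and 0.0294 for the fixed term, and changed no other call of a member. A fixed term for the mouse cannot be set beside the genotype, so genotype comparisons have the random block only. Scaling by library totals alone moved the median of all genes to 0.122 (WT) and 0.133 (Aim2-/-) at 3 h and to 0.108 and 0.198 at 6 h, and with it the Aim2-/- 6 h calls of Stat4 (-0.27, adjusted p 0.0775) and Stat6 (-0.19, adjusted p 0.0657) were lost. The changes of sign were in Stat4 WT 3 h vs 0 h (-0.0098 with RLE factors or with DESeq2, -0.18 to 0.12 with 1 mouse left out), Stat6 WT 3 h vs 0 h (0.062 with library totals alone), Stat3 Aim2-/- 3 h vs 0 h (0.034 with library totals alone), Stat4 Aim2-/- 3 h vs 0 h (0.11 with library totals alone, 0.013 with no filter or with a mean of at least 1 CPM, -0.051 to 0.069 with 1 mouse left out), Stat6 Aim2-/- 3 h vs 0 h (-0.0029 with RLE factors or with DESeq2, -0.038 to 0.059 with 1 mouse left out), Stat5a Aim2-/- vs WT at 0 h (-0.031 to 0.18 with 1 mouse left out), Stat6 Aim2-/- vs WT at 0 h (0.0061 with cell type scores), Stat5a Aim2-/- vs WT at 3 h (-0.016 with cell type scores, -0.035 to 0.12 with 1 mouse left out), Stat5b Aim2-/- vs WT at 3 h (-0.22 to 0.0077 with 1 mouse left out), Stat6 Aim2-/- vs WT at 3 h (0.018 with cell type scores), Stat3 Aim2-/- vs WT at 6 h (-0.0049 with RLE factors or with DESeq2, -0.049 with no filter, -0.017 with a mean of at least 1 CPM, -0.057 to 0.087 with 1 mouse left out), Stat5b Aim2-/- vs WT at 6 h (-0.026 with no filter, -0.0086 to 0.11 with 1 mouse left out), Stat3 Aim2-/- vs WT at 24 h (0.033 with library totals alone, 0.10 with cell type scores, -0.12 to 0.028 with 1 mouse left out), Stat6 Aim2-/- vs WT at 24 h (0.017 with cell type scores). The cause of these changes was not tested.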
